A study of Mus musculus with 12 samples.

Results

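F-box proteins are the subunits that pick the substrates of SCF ubiquitin ligases. The genes described here are those whose symbol begins with *Fbxl*, *Fbxo* or *Fbxw* and a number, apart from *Fbxo43* and *Fbxo5*. The rule found 77 of the 56691 genes in the table, 19 *Fbxl*, 34 *Fbxo* and 24 *Fbxw* genes. Of these, 75 were annotated as protein coding. The other two were *Fbxl12os*, an antisense RNA caught by its symbol, and *Fbxw23*, a transcribed pseudogene. The choice used symbols only and no measured value. Of the 24 *Fbxw* genes, 15 lay side by side on the minus strand of chromosome 9 (GRCm38, 109139447 to 109790670, a span of 651 kb), and 62 members lay outside this *Fbxw* cluster.

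RNA was sequenced from WT and *Alkbh5*-/- (KO) mouse oocytes at the germinal vesicle (GV), germinal vesicle breakdown (GVBD) and metaphase II (MII) stages, with 2 libraries in each of the 6 groups. ALKBH5 removes the methyl mark from N6-methyladenosine in RNA, and the study asked how its loss changes the decay of maternal RNA. By the methods, the KO allele is a germline deletion of exon 1 in C57BL/6 mice, made with CRISPR-Cas9. Both genotypes were females of about 3 weeks primed with PMSG, a gonadotropin, and their oocytes were cultured and collected by time as small pools, so that KO libraries of the later stages may hold oocytes that had not reached the stage named. Nothing in the labels ties a library to one female, and p-values therefore measure the spread between pools.

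In an SCF ligase the cullin CUL1 holds the RING protein RBX1 at one end and SKP1 at the other. The F-box motif binds SKP1, and the rest of the F-box protein binds the substrate, often after the substrate is phosphorylated. FBXL proteins carry leucine-rich repeats for this, FBXW proteins carry WD40 repeats, and FBXO proteins carry other domains. Attachment of NEDD8 to the cullin switches the ligase on, and the COP9 signalosome takes it off again. In oocytes such ligases act on proteins that hold or release meiotic arrest, and growing oocytes store the RNAs that are later translated or degraded during maturation without new transcription.

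The genes of the *Fbxw* cluster are close copies of one another. Over the 14 copies with a coding sequence, the coding lengths were 1392 to 1407 bases, and the 91 pairwise identities ranged from 79.0% to 99.1% with a median of 83.6%. *Fbxw14* and *Fbxw28* were the closest pair, at 99.1%. *Fbxw14* and *Fbxw22* were 92.3% identical. The upstream sequences were alike as well, and 4 are shown because their RNAs, described below, declined by very different amounts between GV and MII. They are RefSeq promoters on GRCm38.p6, minus strand, from 150 bases before the annotated start to 50 bases after it: *Fbxw15* at chr9:109568213-109568412, *Fbxw26* at chr9:109746040-109746239, *Fbxw14* at chr9:109287627-109287826 and *Fbxw28* at chr9:109339610-109339809. Capitals mark CAGCTG, an E-box, and TTTAAA, a short run of thymines and adenines, each of which reads the same on both strands.
Fbxw15: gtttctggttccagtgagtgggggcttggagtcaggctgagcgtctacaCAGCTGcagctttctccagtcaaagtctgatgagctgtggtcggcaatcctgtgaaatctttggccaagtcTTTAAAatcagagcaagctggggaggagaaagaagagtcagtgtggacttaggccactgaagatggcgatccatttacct
Fbxw26: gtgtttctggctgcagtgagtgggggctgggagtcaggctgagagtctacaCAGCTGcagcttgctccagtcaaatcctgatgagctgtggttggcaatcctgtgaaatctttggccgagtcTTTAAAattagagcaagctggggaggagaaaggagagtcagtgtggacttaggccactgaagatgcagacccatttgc
Fbxw14: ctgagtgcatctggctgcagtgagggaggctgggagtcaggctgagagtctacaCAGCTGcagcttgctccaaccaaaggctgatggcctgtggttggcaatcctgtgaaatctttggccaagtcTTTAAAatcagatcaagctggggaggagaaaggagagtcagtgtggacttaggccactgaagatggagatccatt
Fbxw28: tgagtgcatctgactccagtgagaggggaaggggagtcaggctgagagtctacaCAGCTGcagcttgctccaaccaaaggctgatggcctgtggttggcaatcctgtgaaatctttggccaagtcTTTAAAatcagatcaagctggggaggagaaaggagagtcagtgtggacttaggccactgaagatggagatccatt

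Of the 15 cluster genes, 12 had an entry in the promoter table. CAGCTG was present in 11 of the 12 windows from 250 bases before to 50 bases after the start, and TTTAAA in 10. All 10 windows with both held them in the same spacing, with the start of TTTAAA 71 bases after that of the nearer CAGCTG, and with TTTAAA beginning 10 to 54 bases before the annotated start. Among all 32851 promoters of that length, 16.3% held CAGCTG, 13.2% held TTTAAA and 1.77% held both. *Fbxw20* held only CAGCTG, and the window of the pseudogene *Fbxw23* held neither. Apart from that of *Fbxw23*, the windows are close copies of one another and are not independent cases. These matches describe the letters only.

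The ends of the transcripts were compared because maternal RNA decay and storage act through the tail. In 14 of the 15 genes a GENCODE transcript carried the polyadenylation hexamer AATAAA in its last 50 bases. The exception was *Fbxw26*. The 30 bases around the hexamer, in capitals, are shown for the same contrast of genes that declined strongly (*Fbxw15* at chr9:109552613-109552642 and *Fbxw13* at chr9:109179229-109179258), about as much as the median gene (*Fbxw24* at chr9:109601123-109601152), and less (*Fbxw14* at chr9:109271133-109271162 and *Fbxw28* at chr9:109323242-109323271), all on the minus strand of GRCm38.
Fbxw15: ctcttcctcaaagatAATAAAggcctattt
Fbxw13: ttcttcctcgatgatAATAAAagtctattt
Fbxw24: ttcttcctcaatgatAATAAAggtctattt
Fbxw14: gtcttactcaatgatAATAAAggtctattt
Fbxw28: gtcttactcaatgatAATAAAggtctattt

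None of the 14 transcripts held TTTTAT or TTTTAAT, letters of the cytoplasmic polyadenylation element, in its last 100 bases on the sense strand. Over 21852 protein-coding genes, 16.6% held one or the other in the last 100 bases of their longest transcript. That transcript was not chosen by the hexamer, unlike those of the 14. The 14 ends are also close copies of one another and are not independent cases.

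Counts of near-identical copies depend on how reads were assigned, and the authors kept uniquely mapped reads. Along the transcripts of 13 cluster genes no window of 150 bases, the read length in the labels, occurred in another gene. Only *Fbxw14* and *Fbxw28* shared such windows, 642 of them, which were 28.4% of the windows of *Fbxw14* and 30.6% of those of *Fbxw28*. Values of this pair are therefore less certain than those of the other copies.

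The libraries held 28557742 to 40247810 counts, of which 221927 to 838409 fell on ERCC spike-in RNAs. Levels below are counts divided by the spike-in sum of the library relative to the mean over libraries, called scaled counts. *Alkbh5* received 5355 to 10181 counts in the WT libraries and 54 to 143 in the KO libraries. The 10 oocyte markers, such as *Zp3* and *Gdf9*, summed to between 8923 and 16794 CPM of the endogenous counts. The 13 cumulus and granulosa markers summed to between 40.6 and 87.7, and every one of them had a count in at least 1 library. The 6 blood and immune markers ranged widely within and between groups. In WT their sum was 15.6 in one GV library and 3414 in the other, lay from 1773 to 1952 CPM at GVBD, and from 10.5 to 31.3 at MII. In KO the GV libraries had 1872 and 3285, those of GVBD only 9.25 and 10.9, and the MII pair 14.5 and 574. The 4 muscle markers stayed at or under 138 in every library. Their sum was at or under 0.366 in both KO MII libraries, and was also 0.308 in 1 WT GV library and 0.0336 in 1 KO GVBD library. The part of these differences in the results below was not tested.

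The *Fbxw* cluster stood out by its level among the F-box genes. Per kilobase of exon, its 15 genes were the 15 highest of the 77 members, with mean scaled counts over the 12 libraries of 5885 (*Fbxw25*) to 207168 (*Fbxw24*). By this measure *Fbxw24* held rank 5 and *Fbxw15* rank 15 among all genes. The highest member outside the cluster was *Fbxo28*, at 1184 per kb, and the median of the 62 outside members was 54.1. Of the outside members, *Fbxo24* had no count in any library. Across the 77, 60 had at least 10 counts in each of the 12 libraries.

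**Figure D1:**
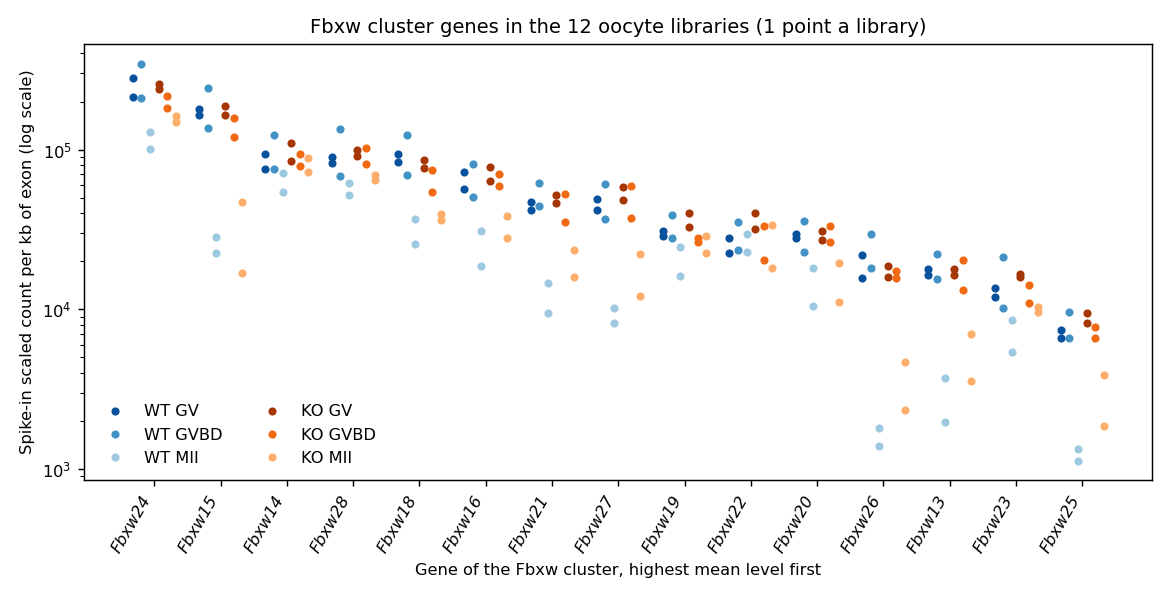
Scaled count per kb of exon (log scale) of the 15 *Fbxw* cluster genes, with 1 point for each of the 12 libraries and a color for each group. Levels span from *Fbxw24* on the left to *Fbxw25* on the right, and the WT MII points of *Fbxw15*, *Fbxw26*, *Fbxw13*, *Fbxw27* and *Fbxw25* lie well under the points of the other stages.

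Together, the cluster took 3.74% and 4.68% of the endogenous counts of WT oocytes at GV. This share was 5.34% and 4.81% at GVBD, then 2.97% and 3.43% by MII. The KO libraries gave 3.81% and 3.87% at GV, followed by 3.62% and 3.49% at GVBD and by 2.96% and 4.17% at MII. The WT MII shares were under both WT GV shares, whereas the KO MII shares lay on both sides of the KO GV shares. At GVBD both KO shares were under both WT shares. The 62 members outside the cluster together took only 0.106% to 0.149% of a library.

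From GV to MII in WT, 26 of the 69 F-box genes tested passed the threshold (edgeR quasi-likelihood test, Benjamini-Hochberg adjusted p under 0.05 and a log2 fold change of at least 1 in size), and all 26 were lower at MII. Among all 18816 genes tested, 30.9% passed in either direction and 30.5% were lower, against 37.7% of the F-box genes. The median log2 fold change was −1.11 over the F-box genes and −1.06 over all genes. This shared shift comes with the spike-in scale, and with TMM and median-of-ratios scaling the median of all genes was −0.22 and −0.08. Fewer oocytes in a pool and less RNA per oocyte cannot be told apart in these libraries. The study's methods reverse transcribed polyadenylated mRNA, and its assay found shorter poly(A) tails on the transcripts examined in maturing WT oocytes. Poorer capture of RNA with short tails cannot be told apart from the other readings either. Of the 6 blood and immune markers, 4 were lower at MII as well. Relative to the bulk of genes the picture was divided. With TMM scaling 21 members passed, of which 15 were lower and 6 higher. They were 30.4% of those tested, while 4522 of all 18816 genes passed. The split was 14 lower and 9 higher among 23 members with median-of-ratios scaling, or 33.3%, while 4825 of all genes passed. The number lower under all 3 scalings was 14, of which 5 were cluster genes. How many of all genes were lower under all 3 scalings, higher under both other scalings, or passed in every alternative fit, was not counted. For TMM and median-of-ratios scaling, the calls over all genes were not split by direction. Leaving out 1 library moved the medians of the F-box genes and of all genes. They were −1.48 and −1.14 without WT GV replicate 1, and −0.77 and −0.85 without WT GV replicate 2. Without WT MII replicate 1 they were −1.67 and −1.58, and without WT MII replicate 2 they were −0.94 and −0.87. Of the 26, 8 passed in every alternative fit, *Fbxl13*, *Fbxl14*, *Fbxo16*, *Fbxo40*, *Fbxw10*, *Fbxw15*, *Fbxw17* and *Fbxw26*.

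Within the cluster, 9 of 15 genes were lower at MII in WT, yet the copies diverged widely. Values of cluster genes are scaled counts per base of exon, replicate 1 first. *Fbxw26* had 15.8 and 22.0 at GV and 1.80 and 1.39 at MII. *Fbxw15* had 164 and 179 at GV and 28.3 and 22.5 at MII. *Fbxw13* had 16.5 and 17.9 at GV and 3.70 and 1.97 at MII. For all of these, both MII libraries were far under both GV libraries. The log2 fold changes were −3.56 ± 0.49 (SE) for *Fbxw26*, −2.76 ± 0.42 for *Fbxw15* and −2.60 ± 0.48 for *Fbxw13*, with edgeR adjusted p of 2.26e-11, 1.83e-09 and 8.30e-07.

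*Fbxw25* (6.59 and 7.46 at GV, 1.34 and 1.13 at MII) and *Fbxw27* (42.0 and 48.8 at GV, 10.2 and 8.16 at MII) followed, with log2 fold changes of −2.51 ± 0.50 and −2.31 ± 0.44. These 5 genes are the cluster members that were lower under each of the 3 scalings. *Fbxw21* fell by 1.87 on the log2 scale, and was under the fold minimum with median-of-ratios scaling (−0.89).

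A second tier declined about as much as the median gene. *Fbxw18* fell by 1.51, *Fbxw16* by 1.38 and *Fbxw24* by 1.11 on the log2 scale, the last from 213 and 282 per base at GV to 129 and 101 at MII. None of these passed with TMM or median-of-ratios scaling, where the log2 fold changes were between −0.65 and −0.08. *Fbxw20* did not pass, with a log2 fold change of −1.01 ± 0.43 (edgeR adjusted p = 0.0562). The values of *Fbxw23*, the pseudogene, were −0.87 ± 0.46 (adjusted p = 0.142).

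The remaining copies, *Fbxw28*, *Fbxw19*, *Fbxw14* and *Fbxw22*, did not pass in WT. *Fbxw14* had 75.8 and 93.6 at GV and 71.1 and 54.4 at MII, so that both MII libraries were under both GV libraries by a small margin. *Fbxw22* had 22.6 and 27.8 at GV and 29.6 and 22.8 at MII, and its stages overlapped. Their log2 fold changes were −0.60 ± 0.40 for *Fbxw28*, −0.55 ± 0.41 for *Fbxw19*, −0.43 ± 0.39 for *Fbxw14* and 0.06 ± 0.42 for *Fbxw22*. With median-of-ratios scaling the sign turned for *Fbxw28*, *Fbxw19*, *Fbxw14* and *Fbxw23*, and *Fbxw22* passed as higher at 1.07. *Fbxw14*, *Fbxw28* and *Fbxw22*, which ranked among the 4 smallest declines, are also the 3 most similar coding sequences of the cluster. Other similar copies declined by unlike amounts, such as *Fbxw16* and *Fbxw26* (89.6% identical) and *Fbxw24* and *Fbxw25* (88.6%). A link between likeness and decline was not tested.

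**Figure D2:**
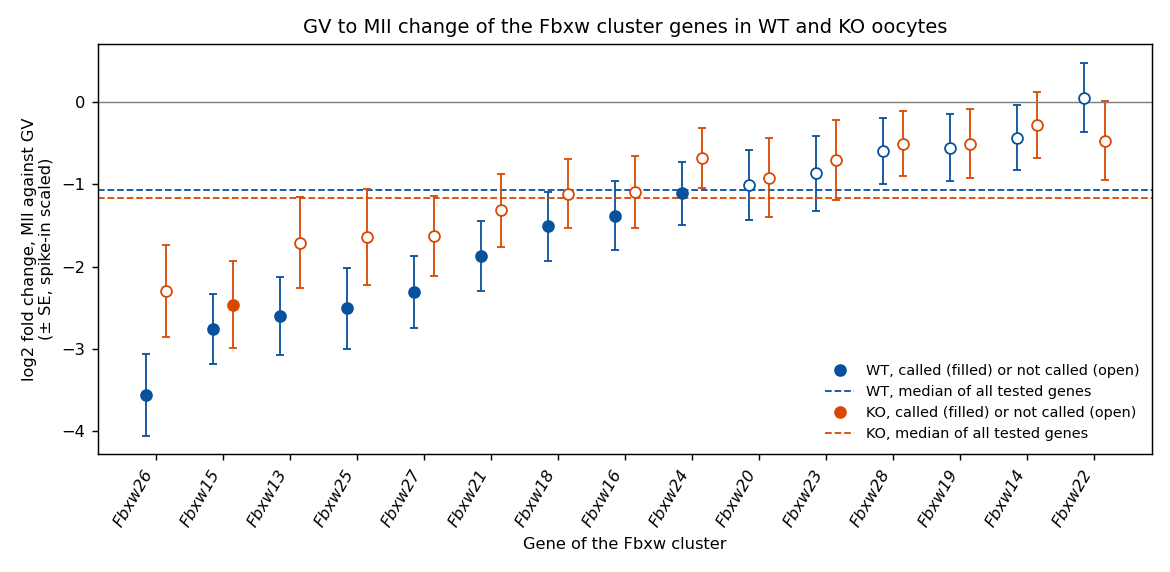
Log2 fold change from GV to MII (± SE, 2 libraries a group) of the 15 *Fbxw* cluster genes in WT (blue) and KO (orange), ordered by the WT value. Filled points passed the threshold, and the dashed lines mark the medians of all tested genes, −1.06 in WT and −1.17 in KO. WT values run from −3.56 for *Fbxw26* to 0.06 for *Fbxw22*, and with median-of-ratios scaling those of *Fbxw28*, *Fbxw19*, *Fbxw14* and *Fbxw23* turn positive in WT, as do 9 of the 15 in KO.

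Shares within the cluster do not depend on the scale of a library. *Fbxw15* made up 15.5% and 14.3% of the cluster counts in WT GV, and 4.81% and 5.17% in WT MII. *Fbxw14* made up 10.1% and 10.6% in WT GV, and 17.1% and 17.7% in WT MII. *Fbxw22* went from 2.62% and 2.73% to 6.18% and 6.44%. The make-up of the cluster RNA thus differed between these GV and MII libraries, and this difference was not tested. In WT, 8 genes had both MII shares under both GV shares and 5 had them above, leaving *Fbxw20* and *Fbxw24* with overlapping shares. The shares have a fixed total, so a fall of one copy raises the shares of others. The mean level of *Fbxw14* fell from 84.7 per base at WT GV to 62.8 at WT MII while its share rose. With 2 libraries a group such separation also arises without a difference, and its frequency in other genes was not counted.

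In KO the order of the copies was close to that in WT, though 9 of the 15 log2 fold changes turned positive with TMM or median-of-ratios scaling. The corresponding counts were 7 genes with lower and 5 with higher shares at MII, and *Fbxw16*, *Fbxw20* and *Fbxw22* overlapped. *Fbxw15* made up 14.3% and 14.1% at KO GV, and 6.67% and 2.75% at KO MII. Over the 15 genes, the log2 fold changes in KO and in WT, which share no library, had a Pearson correlation of 0.96 and a Spearman correlation of 0.98. The genes share libraries and near-identical sequence, and the correlation is a description only.

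**Figure D3:**
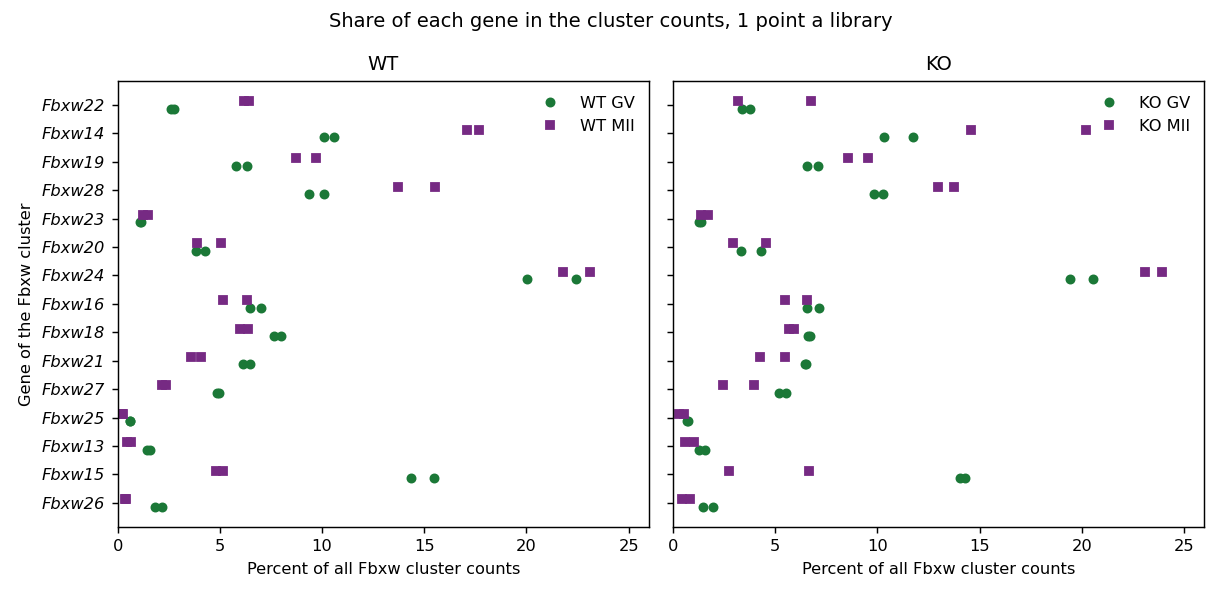
Percent of all *Fbxw* cluster counts taken by each gene, at GV (green circles) and MII (purple squares), 1 point a library, in WT (left) and KO (right). *Fbxw15* drops from about 15.5% and 14.3% to 4.81% and 5.17% in WT, while *Fbxw14* climbs to 17.1% and 17.7%.

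The test of the MII to GV difference in KO called 1 of 67 F-box genes, *Fbxw15*, against 3.28% of the 18777 genes tested. *Fbxw15* had 188 and 164 scaled counts per base at KO GV and 46.8 and 17.0 at KO MII. Its log2 fold change was −2.46 ± 0.53 (edgeR adjusted p = 0.0434), and the call was lost without either KO GV library (adjusted p = 0.22 and 0.111) and under TMM or median-of-ratios scaling (0.056 and 0.0558). *Fbxw26* had the next lowest value in the cluster, −2.30 ± 0.56 (adjusted p = 0.0516). At an unadjusted p under 0.05, 18 members passed edgeR, which were 26.9% of those tested against 24.6% of all genes. DESeq2 called 11, all lower, or 16.4% of the members, and 3068 of all 18777 genes. TMM and median-of-ratios scaling each called 4, 2 lower and 2 higher, or 5.97% of the members. Over all genes they called 906 and 930. All 4 muscle markers were also lower at KO MII.

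The KO MII libraries differed from each other more than other pairs did, and the fitted changes of F-box genes and of all genes moved with them. Among members averaging 50 counts or more in a group, the median ratio of the higher to the lower replicate was 2.09 in KO MII, against 1.17 to 1.65 in the other groups. With all libraries, the median log2 fold change was −0.89 over the tested F-box genes and −1.17 over all genes. Without KO MII replicate 1 these medians were −1.51 and −2.09, and without KO MII replicate 2 they were −0.61 and −0.80. Without KO GV replicate 1 they were −0.73 and −0.94, and without KO GV replicate 2 they were −0.88 and −1.33.

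The difference between the genotypes in the GV to MII change was tested directly as an interaction. No F-box gene passed among 71 tested, and 0% of all 20807 genes did. With edgeR 2 members, *Fbxl14* and *Fbxw17*, had an unadjusted p under 0.05, which were 2.82% of those tested against 5.75% of all genes. DESeq2 called 0 members and 154 of all genes. The values of *Fbxl14* and *Fbxw17* were higher in KO by 2.51 ± 0.95 and 2.42 ± 0.91 on the log2 scale (edgeR adjusted p = 0.704 for each). Within the cluster *Fbxw26* had the highest value, 1.26 ± 0.64 (adjusted p = 0.937). That *Fbxw26* passed in WT and not in KO does not, therefore, show a difference between the genotypes.

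Outside the cluster, 17 of 54 tested members were lower in WT MII, 6 *Fbxl*, 8 *Fbxo* and 3 *Fbxw* genes. This share was near the 30.5% of all genes tested that were lower, and the median log2 fold change was −0.86, against −1.06 over all genes. Values from here on are scaled counts per gene, which do not allow a comparison between genes. *Fbxw17* had 530 and 539 at GV and 31.1 and 42.4 at MII. *Fbxo40*, an F-box gene known from skeletal muscle, had 2956 and 2385 at GV, then 3862 and 2514 at GVBD, but 247 and 211 at MII. *Fbxw10* had 229 and 295 at GV and 40.7 and 7.23 at MII. The MII libraries lay far under those of the earlier stages in each case. The log2 fold changes were −3.85 ± 0.63 for *Fbxw17*, −3.54 ± 0.54 for *Fbxo40* and −3.47 ± 0.71 for *Fbxw10*.

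*Fbxl17*, which encodes a quality control receptor for BTB-domain dimers, also passed (−4.07 ± 0.61) but varied between replicates. The WT libraries gave 298 and 1185 at GV, then 158 and 1219 at GVBD, but 36.7 and 51.1 at MII. The KO libraries gave 1657 and 115 at GV, with 112 and 108 at GVBD, while MII had 47.0 and 55.9. One library of a pair was thus up to 14.4 times the other.

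*Fbxo6*, whose protein binds the sugars of misfolded glycoproteins, had the lowest fitted value of all members, −4.35 ± 1.63, on very few counts. It received 21 and 16 counts in WT GV and 0 and 4 in WT MII, and passed in none of the alternative fits that tested it (adjusted p = 0.0599 to 0.301). At the other end, *Fbxo38* (1150 and 1307 at GV, 574 and 302 at MII), *Fbxl2* (408 and 588 at GV, 285 and 89.6 at MII) and *Fbxo7* (833 and 836 at GV, 424 and 235 at MII) fell by 1.49, 1.42 and 1.34 on the log2 scale. None of the 3 passed with TMM or median-of-ratios scaling. *Fbxo7* acts on the proteasome and mitophagy and is abundant in red cell precursors.

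The 6 members that passed as higher at MII with both TMM and median-of-ratios scaling were *Fbxo15*, *Fbxo42*, *Fbxo9*, *Fbxl6*, *Fbxl5* and *Fbxl20*. These 6 were grouped by their values, and how many of all genes passed as higher with both scalings was not counted. *Fbxo42* and *Fbxo9* were named only after their values had been seen. *Fbxo15*, *Fbxl5* and *Fbxl20* were among the well-studied receptors, and *Fbxl6* passed at GVBD. None of the 6 passed with spike-in scaling. There *Fbxo15*, a gene known as an OCT4 target in embryonic stem cells, had a log2 fold change of 0.65 ± 0.48 in WT. It had 1902 and 2018 at GV and 4282 and 1880 at MII, so its stages overlapped. *Fbxo15* overlaps *Timm21* on the other strand, and the use of strand in the counting is not given in the sources used here.

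**Figure D4:**
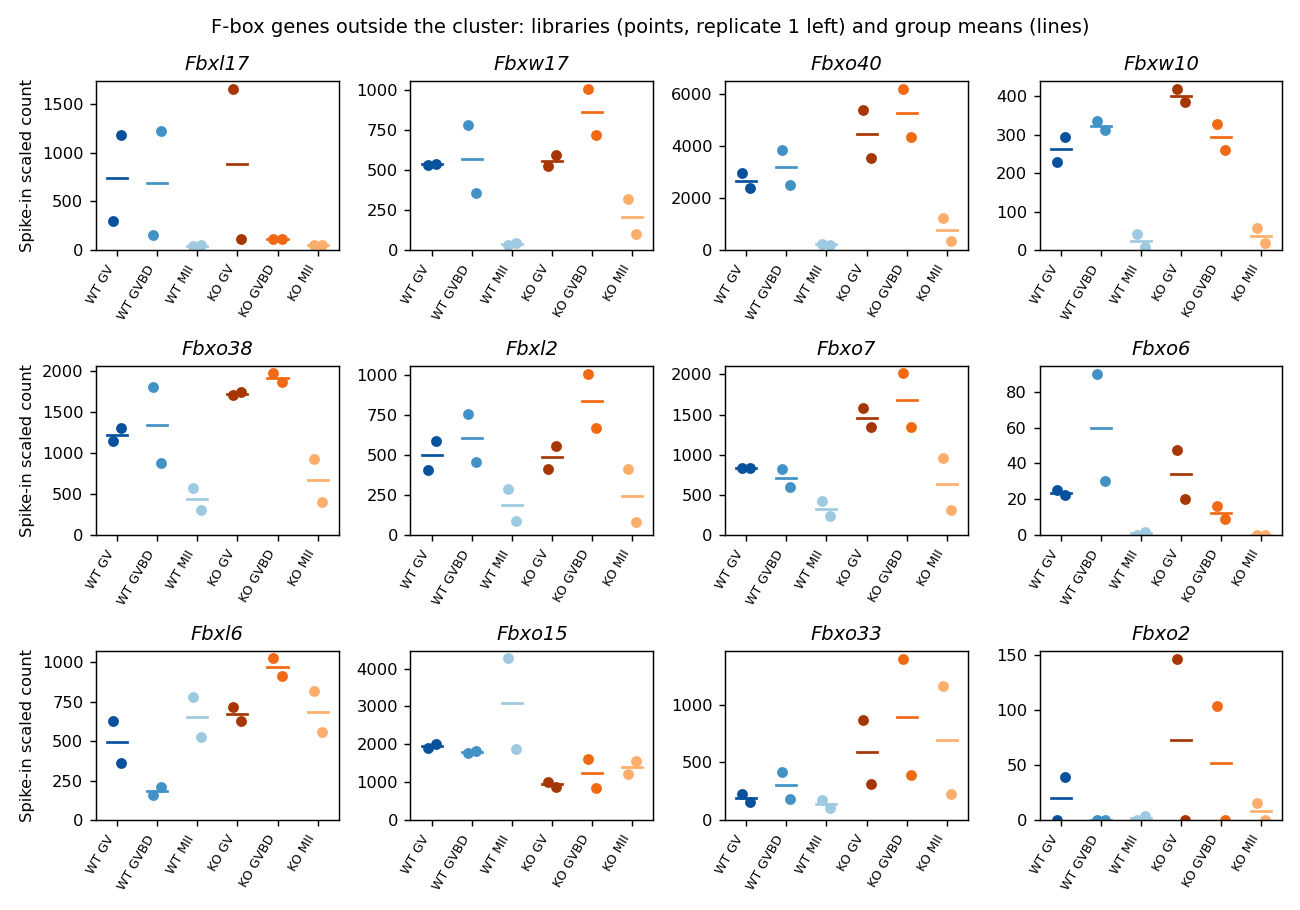
Scaled counts of 12 F-box genes outside the cluster in each library (points, replicate 1 on the left of a pair) with group means (lines), axes from 0. *Fbxw17*, *Fbxo40* and *Fbxw10* are lowest at MII in both genotypes, *Fbxl17* and *Fbxo2* differ between replicates, and *Fbxl6* is lowest in WT GVBD.

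Between KO and WT few F-box genes passed. At GV none of 70 did, against 0.0977% of all 19452 genes tested. With edgeR 10 members had an unadjusted p under 0.05, which were 14.3% of those tested against 17.9% of all genes. DESeq2 called 4 members, 3 higher and 1 lower, and 666 of all 19452 genes. The lowest p among the members was that of *Fbxo15*, with 1020 and 879 in KO GV against 1902 and 2018 in WT GV. Both KO libraries were under both WT libraries, and the log2 fold change was −1.05 ± 0.20 (edgeR adjusted p = 0.135). *Fbxl5*, the iron-sensing receptor that removes IRP2, had 2418 and 1721 in KO GV against 988 and 1075 in WT GV, a 2.01-fold higher level (adjusted p = 0.163). The median log2 fold change at GV was 0.37 over the F-box genes and 0.36 over all genes.

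At GVBD 1 of 69 members passed, *Fbxl6*, against 2.54% of all 19462 genes tested. *Fbxl6* (chromosome 15, 76535721 to 76538746, minus strand) had 162 and 208 in WT GVBD and 1024 and 910 in KO GVBD, and the groups did not overlap. The log2 fold change was 2.38 ± 0.58 (edgeR adjusted p = 0.0276). It did not pass with a replicate block (adjusted p = 0.0548), with TMM (0.14) or median-of-ratios scaling (0.128), with all 12 libraries in one model (0.167), or without any 1 of the 4 libraries (0.0637 to 0.243). In WT it had 624 and 364 at GV and 779 and 529 at MII, so its WT GVBD libraries were the lowest of the 12. With edgeR 10 members had an unadjusted p under 0.05, which were 14.5% of those tested against 14.9% of all genes. DESeq2 called 2 members and 901 of all 19462 genes. Of the 6 blood and immune markers, 4 were lower in KO GVBD. The median over the cluster was −0.21, against 0.23 over all genes, and no cluster gene passed.

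At MII none of 65 members passed, against 0.803% of all 17566 genes tested. With edgeR 4 had an unadjusted p under 0.05, which were 6.15% of those tested against 7.32% of all genes. DESeq2 called 1 member and 346 of all 17566 genes. *Fbxl14*, whose protein targets Snail and which was named after its values had been seen, had the highest value, 2.77 ± 1.08 (adjusted p = 0.306). The medians were 0.55 over the F-box genes and 0.30 over all genes. In the same comparison 3 of the 6 blood and immune markers were higher in KO, and all 4 muscle markers were lower.

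Over all stages none of 72 members passed, against 1.26% of all 22004 genes tested. With edgeR 16 had an unadjusted p under 0.05, which were 22.2% of those tested against 18.8% of all genes. DESeq2 called 7 members, all higher, or 9.72%, and 1356 of all 22004 genes. The 2 calls of TMM scaling went in opposite directions. Median-of-ratios scaling called 3, of which 1 was lower. Over all genes these scalings called 599 and 608. *Fbxo33*, a receptor for YB-1 that was also named for its values, had 228 and 158, 421 and 184, and 177 and 106 in WT from GV to MII, and 868 and 316, 1398 and 392, and 1165 and 229 in KO. KO replicate 1 was above KO replicate 2 at each stage, and the log2 fold change was 1.83 ± 0.46 (edgeR adjusted p = 0.0699). *Fbxl5* had a value of 0.87 ± 0.22 (adjusted p = 0.0703) and *Fbxo15* one of −0.91 ± 0.26 (adjusted p = 0.0959). With all libraries the median log2 fold change was 0.39 over the F-box genes and 0.29 over all genes. Without KO MII replicate 1 these medians were 0.24 and 0.13, and without KO MII replicate 2 they were 0.43 and 0.39.

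**Figure D5:**
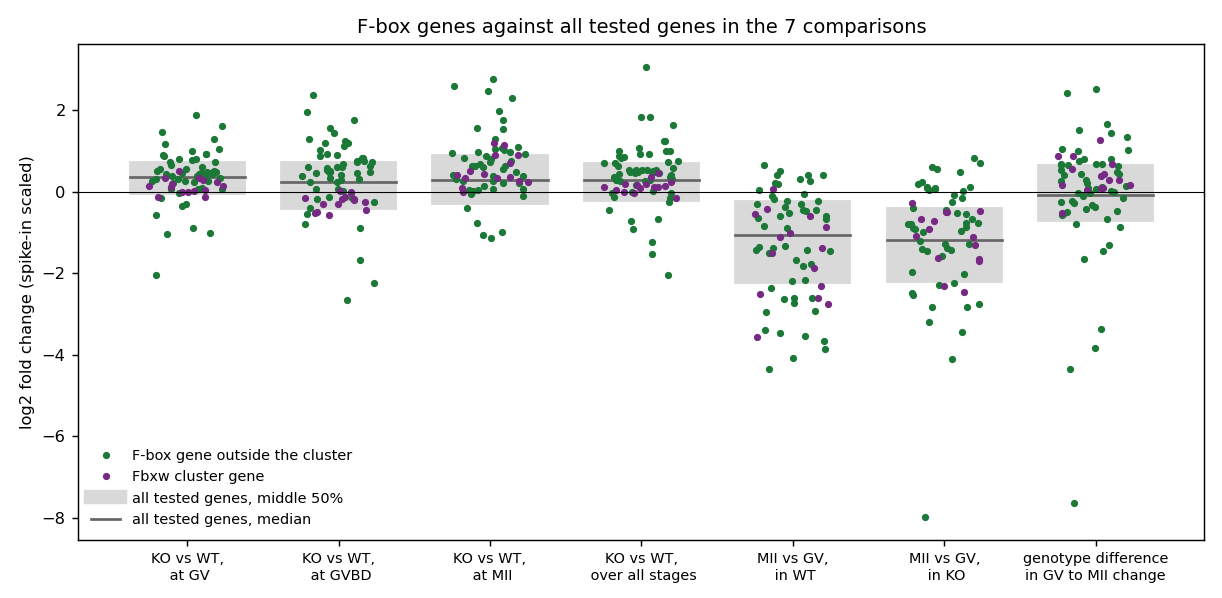
Log2 fold changes (spike-in scaled) of the tested F-box genes in the 7 comparisons, with cluster genes in purple and the others in green. The gray bars and lines give the middle 50% and the median of all tested genes, and the F-box genes lie around them in each comparison. The medians from GV to MII in WT are −1.11 for the F-box genes and −1.06 for all genes.

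The well-studied receptors were read gene by gene. *Fbxw7*, which targets cyclin E, MYC and Notch, had 332 and 268 at WT GV and 333 and 97.8 at MII, with 381 and 253 between them at GVBD. *Fbxw11*, one of the genes for beta-TrCP, had 259 and 271 at GV, then 500 and 204 at GVBD, with 208 and 129 at MII. Both MII values of *Fbxw11* were under both of its GV values, while the GV and MII values of *Fbxw7* overlapped, and neither gene passed in any comparison. *Fbxl21* ranged from 37.1 to 98.1 over the 12 libraries.

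Both *Fbxo34* and *Fbxo30* are tied to oocyte meiosis. *Fbxo34* had 5044 and 5299 at WT GV and 5129 and 3959 at MII, but 2962 and 2876 at GVBD. *Fbxo30*, which acts on the kinesin Eg5, had 3145 and 2662 at GV, then 4392 and 2409 at GVBD, and 2598 and 1452 by MII. Outside that role, *Fbxo11*, the receptor for BCL6, had 1869 and 2125 at GV, then 4146 and 1329 at GVBD, with 2291 and 1451 at MII. The WT GVBD libraries of *Fbxo34* were under those of GV and MII, a contrast that was not tested. None of the 3 passed in any of the 7 comparisons.

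*Fbxl5*, with 988 and 1075 at WT GV, had 1611 and 1038 at GVBD and 1612 and 965 at MII, where GV and MII overlapped. Its log2 fold change from GV to MII was 1.16 with TMM and 1.29 with median-of-ratios scaling, both past the threshold. *Fbxl20*, a membrane-anchored receptor studied at synapses, had 642 and 783 at WT GV and 1070 and 581 at MII, and *Fbxl4*, which restrains mitophagy, had 165 and 254 at GV and 282 and 200 at MII. *Fbxo47*, a gene of meiotic prophase, ranged from 25.1 to 117 over the libraries, *Fbxw2* from 24.9 to 134 and *Fbxo32*, the muscle gene for atrogin-1, from 3.86 to 158. *Fbxo2*, which binds glycoproteins like *Fbxo6*, had 80, 63 and 16 counts in replicate 1 of KO GV, GVBD and MII and 0 counts in replicate 2 of each. In WT it had 28 counts in GV replicate 2 and 8 in MII replicate 2, and 0 in the other libraries.

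The partners of F-box proteins were read from lists by name. From GV to MII in WT, 13 of 30 tested genes of the SCF core and the NEDD8 cycle were lower and none was higher, with a median log2 fold change of −1.22 on the spike-in scale. Over all genes tested 30.5% were lower and the median was −1.06. Among them *Skp1a*, for the subunit that binds the F-box, fell by 1.49 ± 0.40, *Nedd8* by 1.66 ± 0.45, and *Cand1*, which exchanges F-box proteins on the cullin, by 2.02 ± 0.51. Of the COP9 signalosome, which was part of this list and not a list of its own, 7 of the 9 genes tested were lower. Values are on the spike-in scale, and those of the listed genes with other scalings are not given here. The log2 fold changes were −4.05 ± 0.57 for *Cops7a*, −4.04 ± 0.55 for *Cops6*, −2.95 ± 0.50 for *Cops4* and −2.14 ± 0.49 for *Cops5*, its catalytic subunit. *Cops2*, *Cops3* and *Gps1* had values of −1.74, −1.49 and −1.44. *Cops8* (−0.19 ± 0.51) and *Cops7b* (0.42 ± 0.50) did not pass. In KO 1 of 29 passed, against 3.28% of all genes, and this was *Cops6*, with a log2 fold change of −3.11 ± 0.69. Between the genotypes 1 of 31 passed over all stages, against 1.26% of all genes, and this was *Cops8*, higher in KO at 1.42 ± 0.28.

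Of the 8 F-box genes under other symbols, 6 were tested from GV to MII in WT, and *Btrc* (−2.80 ± 0.53), *Fbh1* (−1.27 ± 0.51) and *Kdm2b* (−1.23 ± 0.50) were lower, against 30.5% of all genes tested. *Btrc* is the partner gene of *Fbxw11* for beta-TrCP. *Kdm2a*, a histone demethylase gene, was lower in KO at GVBD (−2.32 ± 0.53), where 7 genes of this list were tested and 2.54% of all genes passed. It was the only call of this list between the genotypes. Of the 14 substrate genes, 1 passed in WT, *Wee1*, a target of beta-TrCP that inhibits CDK1, with −2.57 ± 0.70. This count lay below the 30.9% of all genes that passed. None passed in the other comparisons.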

How the data were processed

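RNA of pooled oocytes was sequenced in 12 libraries. The authors deposited whole-number read counts per gene, made from uniquely mapped reads. The submitters' processing notes name cutadapt 1.9, HISAT2 2.0.4, StringTie 1.3.4d and mm10, while the counting step and its use of strand are not given in the sources used here. The labels and the study's methods describe the library preparation differently. PCR reads without molecular identifiers are not independent molecules.

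Counts were tested with the quasi-likelihood test of edgeR 4.0.16 (R 4.3.3, limma 3.58.1), with library sizes proportional to the ERCC spike-in counts, edgeR's default expression filter and Benjamini-Hochberg adjustment over all genes tested. A gene passed at an adjusted p under 0.05 and a log2 fold change of at least 1 in size. SEs were derived from the F statistic. Groups came from the labels. The 7 comparisons were KO against WT at each stage and over all stages, MII against GV in each genotype, and the difference of these. Alternatives were TMM and median-of-ratios scaling, no filter, at least 10 counts in every library, DESeq2 1.42.0, all 12 libraries in one model, a block for the replicate number, and fits with 1 library left out. The code was tested on simulated data. Python 3.11.15, pandas 2.3.3, Biopython 1.88 and matplotlib 3.10.9 were used.

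Named with values were members that passed (the 6 highest and 6 lowest where more than 12 passed), the 10 highest per kb, every cluster gene and a set of well-studied receptors, not all of which are reported here. Members and lists were chosen with earlier results of these data known. Deviations of same-numbered libraries from their group means had correlations between genotypes of −0.22 (GV), 0.14 (GVBD) and −0.19 (MII), and between GV and MII of 0.03 (WT) and 0.05 (KO), over 13273 genes, so the numbers were not taken as pairs.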

Additional observations from a re-analysis of the deposited data

How the results depend on the processing

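With 2 libraries a group, the counts of F-box genes that passed moved with the fit, and the cause was not tested. At GV 4 passed without a filter and 4 with DESeq2, against 0, while the calls over all genes rose from 19 to 666 in each. At GVBD, against 1, the count was 0 with TMM, median-of-ratios, all 12 libraries in one model or a replicate block, 3 without a filter, 3 with at least 10 counts in every library and 2 with DESeq2. Over all genes the main count of 494 became, in the same order, 32, 37, 12 and 214, then 953, 527 and 901. At MII DESeq2 called 1 member, against 0, and 346 of all genes, against 141. Over all stages, against 0, the count was 2 with TMM, 3 with median-of-ratios, 6 without a filter, 5 with at least 10 counts, 7 with DESeq2 and 2 with a replicate block. The main count of 278 over all genes became, in the same order, 599, 608, 1181, 821, 1356 and 519. From GV to MII in KO, against 1, the count of members was 4 with TMM, 4 with median-of-ratios, 9 without a filter, 11 with at least 10 counts, 11 with DESeq2, 12 with all 12 libraries and 7 with a replicate block. Calls over all genes went from 616 to, in the same order, 906, 930, 2659, 2454, 3068, 2933 and 2462. From GV to MII in WT every alternative that kept all the libraries stayed within 1.5 times of 26, with 25 under the replicate block. Over all genes the main count of 5821 became 3839 to 5520 in these alternatives. Leaving out 1 library gave 0 to 0 at GV, 0 to 2 at GVBD, 0 to 2 at MII, 0 to 5 over all stages, 12 to 26 in WT, 0 to 39 in KO and 0 to 0 for the genotype difference. A block with the numbers crossed, added after seeing the data, called 0 members at GV and 0 at MII.

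The sign of the GV to MII change turned in WT for *Fbxw14* (0.45 with TMM, 0.58 with median-of-ratios), *Fbxw19* (0.30 and 0.43), *Fbxw28* (0.30 and 0.43) and *Fbxw23* (0.11 with median-of-ratios), and for *Fbxw22* without 1 library (lowest −0.14, highest 0.23). In KO it turned for *Fbxw14* (1.02 with TMM and 1.05 with median-of-ratios), *Fbxw16* (0.073 and 0.096), *Fbxw18* (0.10 and 0.13), *Fbxw19* (0.68 and 0.71), *Fbxw20* (0.15 and 0.17), *Fbxw22* (0.92 and 0.96), *Fbxw23* (0.54 and 0.57), *Fbxw24* (0.53 and 0.56) and *Fbxw28* (0.71 and 0.74).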
